A study of Mus musculus with 16 samples.

Results

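The 10 genes described here are 6 receptors of the secretin family in mouse brown adipocytes, the 3 receptor activity-modifying proteins (RAMPs) that pair with receptors of this family, and the peptide hormone adrenomedullin. They are *Sctr*, *Calcrl*, *Gipr*, *Pth1r*, *Vipr1*, *Vipr2*, *Ramp1*, *Ramp2*, *Ramp3* and *Adm*, and they make up 10 of the 54347 genes listed in the deposited table. The set was chosen by measured values of these libraries, namely that *Sctr* was lower and *Ramp3* higher in isoproterenol-treated cells. Differences between stimulated and control cells in these 10 genes are therefore given as a description, with no test. The effect of the guide plasmids, its interaction with isoproterenol and the differences among replicate numbers did not enter the choice and were tested.

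The cells were of the immortalized brown preadipocyte line wt1-SAM, which stably carries the CRISPRa SAM system for raising transcription of a gene that a single guide RNA (sgRNA) points to. All cells were differentiated with rosiglitazone, insulin, T3, dexamethasone, indomethacine and IBMX, given 250 ng of plasmid by reverse transfection on day 4 and harvested on day 7. The plasmid DNA was either an empty vector without a guide or 2 vectors with guides against the long noncoding RNA gene *Gm15551*. Cells were then left as control or stimulated for 24 h with the β-adrenergic agonist isoproterenol at 1 µM. Each of the 4 combinations had 4 libraries of polyadenylated RNA, numbered as replicates 3, 4, 5 and 6. All of them came from this 1 immortalized line, and nothing in the labels says that the 4 libraries of a group came from separate cultures, so p-values measure the spread among these libraries.

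Receptors of the secretin family are membrane proteins with a large outer domain that binds a peptide hormone, and most of them couple to Gs and raise cyclic AMP. β-adrenergic receptors, which isoproterenol activates, use the same second messenger to drive lipolysis and thermogenesis in brown fat. The secretin receptor SCTR lets the gut hormone secretin act on brown adipocytes. The receptor CALCRL does not bind its hormones alone: with RAMP1 it forms the receptor for calcitonin gene-related peptide, and with RAMP2 or RAMP3 it forms receptors for adrenomedullin.

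Total counts per library ranged from 9053521 to 16546187, and 1 gene annotated as ribosomal RNA took 11.7% to 51.8% of them. It exceeded 40% in 3 libraries, the stimulated empty vector libraries of replicates 3 and 5 and the empty vector control of replicate 5. *Gm15551*, the target of the guides, had 0.952 ± 0.405 CPM (counts scaled to library size; SD, n = 4) in empty vector control cells and 2.97 ± 1.08 in sgRNA control cells, and 0.147 ± 0.199 against 1.56 ± 0.420 after isoproterenol. Its averaged sgRNA effect was 2.37 on the log2 scale (SE 0.39, adjusted p = 0.0989, edgeR quasi-likelihood test), and 2.41 (SE 0.28, adjusted p = 0.000550) when replicate number entered as a block. *Camk2d*, a kinase gene used as a second check, had an averaged sgRNA effect of −0.05 (SE 0.07, edgeR adjusted p = 1.00). The 8 adipocyte markers summed to between 9920 and 23065 CPM per library. *Ucp1*, the uncoupling protein of brown fat, rose by 4.03 on the log2 scale with isoproterenol (SE 0.37, edgeR adjusted p = 7.36e-06). It started near the floor, at 0.350 CPM (20 counts) in empty vector and 0.548 CPM (30 counts) in sgRNA control cells. Of the other brown markers, *Cidea*, *Elovl3* and *Ppargc1a* were higher in 8 of 8 pairs (8.16% of tested genes were) and *Cox7a1* in 5. *Ebf2* was lower in 8 of 8 (7.67% were) and *Prdm16* in 6. *Dio2* had at most 1 count in any library. Endothelial markers summed to 2.09 to 3.74 CPM, with *Emcn* at a count of 0 in all 16 libraries and *Kdr* at 2 counts in all. In RNA from whole cultures, fewer cells of a type and less RNA per cell cannot be told apart.

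These genes had few counts. Over the 16 libraries together, *Calcrl* had 472 counts, *Ramp3* 268, *Sctr* 249 and *Adm* 216. *Gipr* had 65 counts, *Pth1r* 31, *Vipr1* 29, *Ramp2* 23, *Ramp1* 19 and *Vipr2* 5. A filter on low counts kept 13150 genes for testing, among them *Calcrl*, *Adm*, *Sctr* and *Ramp3*. The other 6 genes stayed below it. *Sctr* was high enough in control libraries and *Ramp3* in stimulated libraries, so each passed through the treatment in which it was high. After TMM scaling 1 count was worth at least 0.0553 CPM, and a count of 0 allows up to 3 counts, or 0.166 to 0.390 CPM, by counting error alone.

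To compare levels between genes, CPM was divided by the length of the merged exons in kilobases (RPKM). On this scale *Ramp3* averaged 1.04 RPKM over the 16 libraries, *Sctr* 0.649, *Adm* 0.631 and *Calcrl* 0.455. *Gipr* followed with 0.0886 and *Pth1r* with 0.0525, ahead of *Ramp2* at 0.0334, *Ramp1* at 0.0328, *Vipr1* at 0.0270 and *Vipr2* at 0.00524. The order changed with treatment. In control cells *Sctr* led with a mean of 1.05 RPKM (n = 8) and *Ramp3* had 0.260, whereas in stimulated cells *Ramp3* led with 1.82 and *Sctr* had 0.252. This order of means did not hold in replicate 4. There *Adm* was above *Sctr* in control cells (0.974 against 0.457 RPKM with the empty vector, 0.610 against 0.189 with the guides). In stimulated cells of that number *Adm* was above *Ramp3* (0.855 against 0.762 and 0.769 against 0.369). *Adm* and *Calcrl* are neighbours in the order of means in both treatments, with 0.580 and 0.460 RPKM in control cells and 0.681 and 0.451 in stimulated cells. The ranges of these 2 genes overlapped between libraries.

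**Figure D1:**
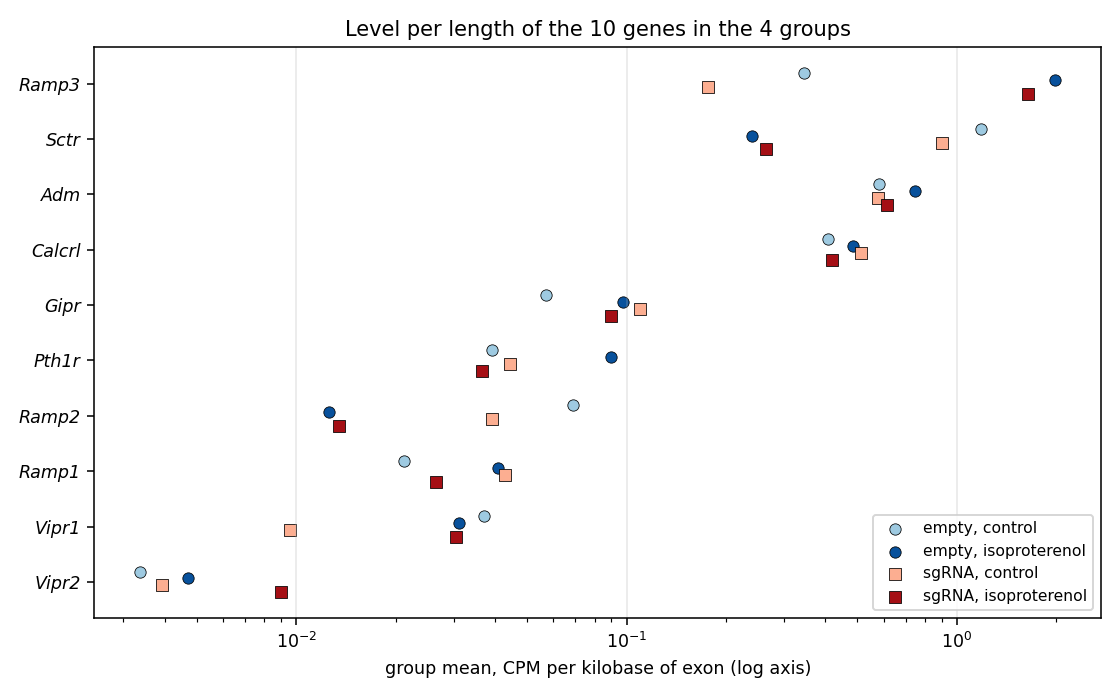
Mean level per length of each of the 10 genes in each of the 4 groups (4 libraries each), in CPM per kilobase of merged exon on a log axis. *Ramp3* moved from 0.344 (empty vector) and 0.177 (sgRNA) in control cells to 1.99 and 1.64 in stimulated cells, *Sctr* moved the other way, and *Calcrl* and *Adm* kept their 4 group means close together.

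*Ramp3* lies on the plus strand at chr11:6658521-6677475 of GRCm38 (GENCODE M21) and *Adm* on the plus strand at chr7:110627661-110629820. The 250 bases before their RefSeq starts are shown because both genes belong to the same receptor system. These 2 genes were picked with their isoproterenol values known, so nothing about the response is read from the windows. Cyclic AMP is known to act on many promoters through factors of the CREB family. The windows lie at chr11:6658283-6658532 and chr7:110627407-110627656 (GRCm38.p6, RefSeq, plus strand), and capitals mark CG dinucleotides.
Ramp3: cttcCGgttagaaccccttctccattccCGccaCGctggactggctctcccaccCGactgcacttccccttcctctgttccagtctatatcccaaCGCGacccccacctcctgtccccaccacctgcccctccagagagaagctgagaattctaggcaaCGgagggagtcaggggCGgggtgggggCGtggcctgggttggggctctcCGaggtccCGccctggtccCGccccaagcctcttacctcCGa
Adm: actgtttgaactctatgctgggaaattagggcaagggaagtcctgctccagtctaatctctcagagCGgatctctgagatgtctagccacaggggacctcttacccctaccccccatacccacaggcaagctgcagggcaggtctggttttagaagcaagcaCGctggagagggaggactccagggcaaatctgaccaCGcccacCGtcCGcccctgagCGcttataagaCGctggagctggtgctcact
The *Ramp3* window held 13 CG dinucleotides and that of *Adm* held 7, against a median of 6 in the same 250 bases of 32851 RefSeq promoters. Neither held the full cAMP response element TGACGTCA, the shorter site TGACG within it or the NR4A element AAAGGTCA on either strand, also when 50 bases after the start were included. Among all promoters these letters occurred in 1.79%, 20.8% and 1.51% of such windows of 300 bases. RefSeq promoter entries were found for 7 of the 10 genes and were not found for *Sctr*, *Ramp2* and *Gipr*. TGACG was found once each in windows of *Ramp1*, *Pth1r* and *Vipr1*, and a match or its lack is a description of the letters only.

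*Sctr*, the secretin receptor gene on the plus strand at chr1:120006894-120063536, had the highest mean level per length of these receptors in control cells. In replicate 4 *Calcrl* was above it, with 0.552 against 0.457 RPKM in empty vector and 0.685 against 0.189 in sgRNA control cells. In empty vector control cells *Sctr* measured 1.99, 0.920, 3.64 and 3.01 CPM in replicates 3, 4, 5 and 6. The stimulated empty vector libraries of the same numbers gave 1.03, 0.221, 0.254 and 0.421 CPM. Each stimulated library was below the control library of its number, although the highest stimulated value exceeded the lowest control value, that of replicate 4. In sgRNA control cells *Sctr* measured 1.68, 0.380, 2.10 and 3.12 CPM. The stimulated sgRNA libraries gave 0.355, 0.226, 1.12 and 0.424 CPM. Here too every stimulated library was lower than its partner, while replicate 4 was low in both states. With the empty vector, the mean was 2.39 ± 1.19 CPM in control and 0.482 ± 0.376 CPM in stimulated cells (SD, n = 4). With the guides, it was 1.82 ± 1.13 and 0.532 ± 0.402 CPM. The fitted difference averaged over both plasmids was −2.07 on the log2 scale (SE 0.47), with −2.35 (SE 0.68) in empty vector cells and −1.78 (SE 0.64) in sgRNA cells. In empty vector cells it ranged from −2.94 without the stimulated library of replicate 3 to −2.05 without that of replicate 4. In sgRNA cells it ranged from −2.43 without the stimulated library of replicate 5 to −1.40 without the control library of replicate 6. No gene is annotated to overlap *Sctr* on either strand.

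*Ramp3*, the partner that gives CALCRL an affinity for adrenomedullin, had few counts in control cells and more after isoproterenol. It measured 0.361, 0.394, 0.519 and 0.623 CPM in replicates 3 to 6 of the empty vector control group. The stimulated empty vector libraries gave 1.80, 1.05, 4.58 and 3.53 CPM. These 2 groups did not overlap, as was true in this direction of 1.94% of tested genes, and replicates 5 and 6 were the highest of both. The sgRNA control libraries gave 0.140, 0.152, 0.0748 and 0.608 CPM, that is 2, 2, 1 and 8 counts. The stimulated sgRNA libraries gave 1.33, 0.509, 2.64 and 4.59 CPM. Replicate 4, the lowest of the stimulated libraries, was below the sgRNA control library of replicate 6, so these 2 groups overlapped, yet each stimulated library was above the control library of its own number. With the empty vector, mean *Ramp3* was 0.474 ± 0.120 CPM in control and 2.74 ± 1.61 CPM in stimulated cells. With the guides, it was 0.244 ± 0.245 and 2.27 ± 1.78 CPM. The fitted average difference was 2.85 on the log2 scale (SE 0.49), with 2.53 (SE 0.68) and 3.17 (SE 0.72) in empty vector and sgRNA cells. In sgRNA cells it was 4.09 without the control library of replicate 6 and 2.56 without the stimulated one. The overlapping antisense gene *Gm11978* had 3 counts in all 16 libraries together, and whether the counting used read strand is not given in the sources used here.

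**Figure D2:**
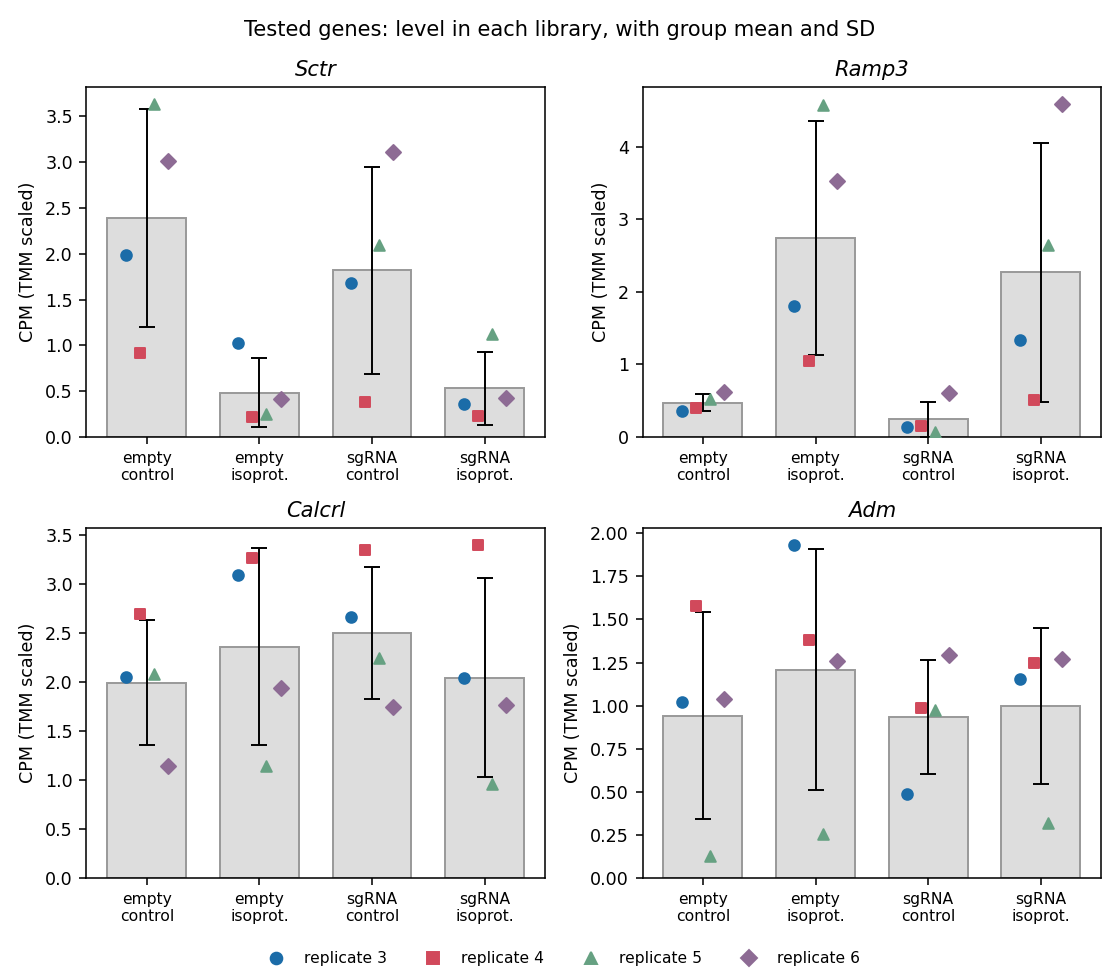
CPM of the 4 genes that passed the low-count filter, per library (points, shaped by replicate number), with group means (bars) and SD (n = 4). *Sctr* was lower and *Ramp3* higher in stimulated groups, while the bars of *Calcrl* (1.99 to 2.50 CPM) and *Adm* (0.936 to 1.21 CPM) overlapped in all 4 groups.

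Across the 13150 tested genes, 2.65% passed the threshold for the isoproterenol effect (adjusted p under 0.05 and a log2 difference over 0.5), 1.33% higher and 1.32% lower. With the replicate block these shares were 5.7%, 3.09% and 2.61%. No such call is given for the 4 genes described here. *Sctr* was lower in 8 of 8 pairs of libraries with the same number and plasmid, as were 7.67% of genes, and *Ramp3* was higher in 8 of 8, as were 8.16%. Over all 8 against all 8 libraries both genes overlapped between treatments, whereas 0.7% of genes lay wholly above and 0.76% wholly below. Because this contrast chose the genes, nothing is read from these counts. In the 26 other settings tried, the averaged difference of *Sctr* stayed between −2.39 and −1.75 and that of *Ramp3* between 2.51 and 3.31. Without the 3 libraries rich in ribosomal RNA it was −2.19 for *Sctr* and 2.75 for *Ramp3*.

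*Calcrl*, the receptor that carries the RAMPs, lies on the minus strand at chr2:84330626-84425411. It measured 2.05, 2.69, 2.08 and 1.14 CPM in empty vector control cells and 3.09, 3.27, 1.15 and 1.93 CPM in stimulated empty vector cells of replicates 3 to 6. In sgRNA cells it measured 2.66, 3.35, 2.25 and 1.75 CPM in control and 2.04, 3.40, 0.961 and 1.77 CPM in stimulated libraries. The 4 groups overlapped, and replicate 4 was the highest in each of them. The fitted isoproterenol difference was −0.01 (SE 0.28) averaged, 0.25 (SE 0.39) in empty vector cells and −0.28 (SE 0.38) in sgRNA cells, and 5 of 8 pairs were higher after stimulation. Over single left-out libraries, the averaged value lay between −0.21 and 0.09. The value in empty vector cells was 0.03 without the stimulated library of replicate 4 and 0.46 without that of replicate 5. The value in sgRNA cells was −0.66 and −0.06 without the stimulated sgRNA libraries of the same numbers. *Calcrl* is well known as an endothelial gene. Of 8 endothelial markers, *Pecam1* passed the filter, with 2.52 ± 0.570, 2.03 ± 0.563, 2.38 ± 0.283 and 2.09 ± 0.669 CPM in empty vector control, empty vector stimulated, sgRNA control and sgRNA stimulated cells, and *Vwf* had 1 to 13 counts in each library, with group means of 0.373 to 0.464 CPM. *Emcn* was at 0, and *Cdh5*, *Kdr*, *Tek*, *Tie1* and *Cldn5* had at most 5 counts in any library. The part of such cells in the *Calcrl* counts was not tested.

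*Adm* encodes adrenomedullin, the peptide that CALCRL binds together with RAMP2 or RAMP3. It measured 1.02, 1.58, 0.130 and 1.04 CPM in empty vector control cells and 1.93, 1.38, 0.254 and 1.26 CPM in stimulated empty vector cells. In sgRNA cells it measured 0.490, 0.988, 0.973 and 1.29 CPM in control and 1.15, 1.24, 0.320 and 1.27 CPM in stimulated libraries. Replicate 5 was the lowest in 3 of the 4 groups, with 1, 2 and 4 counts, but not in sgRNA control cells, where it had 13. The fitted isoproterenol difference was 0.21 (SE 0.41) averaged, 0.31 (SE 0.58) in empty vector cells and 0.11 (SE 0.57) in sgRNA cells, and 5 of 8 pairs were higher. Single libraries moved these values: the difference in empty vector cells was −0.00186 without the control library of replicate 5 and 0.67 without that of replicate 4. In sgRNA cells it was −0.11 without the control library of replicate 3 and 0.38 without the stimulated library of replicate 5, and the average was −0.06 without replicate 3. The antisense gene *Gm28863*, which overlaps *Adm*, had 3 counts in all.

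The responses to isoproterenol were also compared within pairs of libraries. The log2 difference of *Ramp3* was smallest in replicate 4, at 1.13 in empty vector and 1.11 in sgRNA cells, and largest in replicate 5, at 2.81 and 3.60. For *Sctr* it lay between −3.21 in empty vector cells of replicate 5 and −0.49 in sgRNA cells of replicate 4. Replicate 6 gave nearly the same *Sctr* difference in both plasmids, −2.46 and −2.50, whereas replicate 5 gave −3.21 with the empty vector and −0.82 with the guides. The *Calcrl* differences ranged from −1.10 to 0.69 and were below 0 in both plasmids only in replicate 5. Those of *Adm* ranged from −1.24 to 1.02 and were above 0 in both plasmids only in replicate 3.

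**Figure D3:**
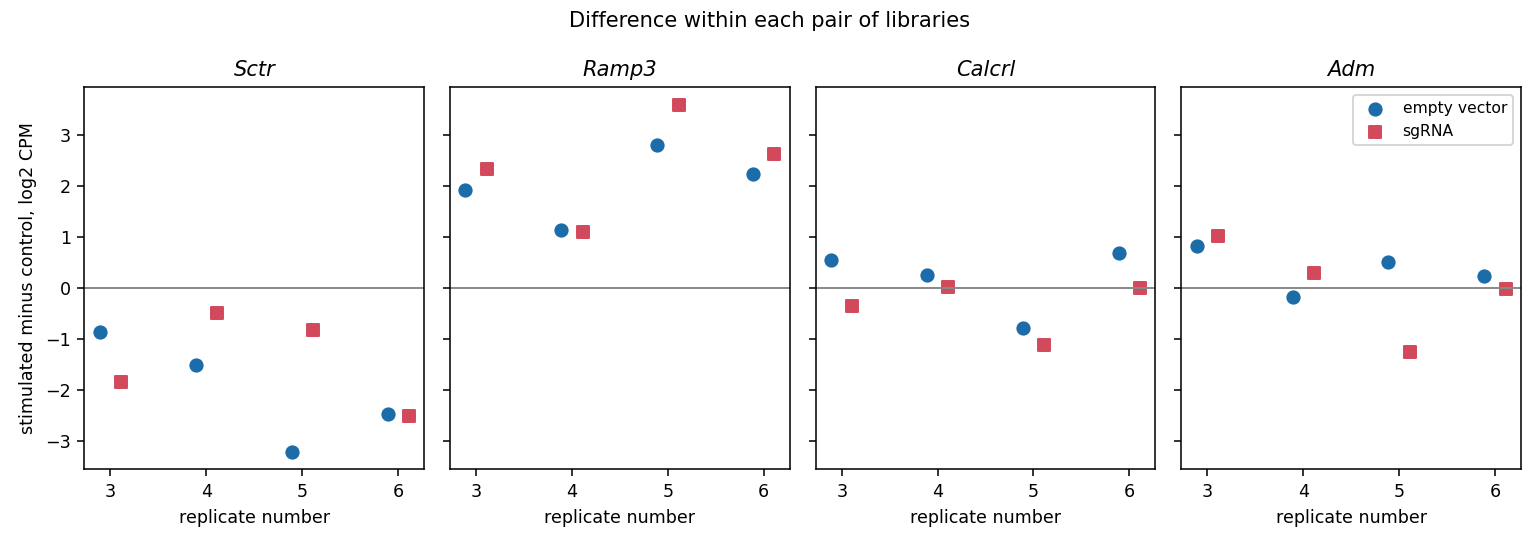
Stimulated minus control log2 CPM (prior count 2) for the pair of libraries of each replicate number, in empty vector (circles) and sgRNA cells (squares). All 8 pairs lie below 0 for *Sctr* and above 0 for *Ramp3*, with the smallest *Ramp3* differences in replicate 4, while *Calcrl* and *Adm* lie on both sides of 0.

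The comparison of sgRNA with empty vector cells asked whether activation of *Gm15551* changed these genes. Averaged over both treatments, no gene of the 4 tested was called, and neither was any of the 13150 genes by edgeR without the block (0%, with 437 or 3.32% at an unadjusted p under 0.05). DESeq2 called 10 genes and edgeR with the block 35, or 0.266%, none of them among these 4, and under the block 1506 genes or 11.5% were at an unadjusted p below 0.05. *Ramp3* had the largest estimate of the 4, −0.58 (SE 0.50, edgeR adjusted p = 1.00) without the block and −0.75 (SE 0.33, unadjusted p = 0.0363, edgeR adjusted p = 0.396) with it. This order rested on replicate 5, without which the estimate was −0.27 for *Ramp3*, −0.38 for *Sctr* and −0.345 for *Adm*. *Ramp3* was lower in sgRNA cells in 7 of 8 pairs. The share of all genes with such a split between plasmids was not counted, so nothing is read from the pair counts of genes in this contrast. The share of the ribosomal RNA gene was lower in the sgRNA library in 8 of 8 pairs. It differed least in control cells of replicate 4 (17.8% against 19.7%) and most in stimulated cells of replicate 5 (20.0% against 51.8%). The part of this share in the *Ramp3* values was not tested. Of the marker genes, *Ly6a* was called lower (−0.74, SE 0.11, edgeR adjusted p = 0.00491, lower in 8 of 8 pairs) and *Cidea*, a lipid droplet protein of brown fat, higher (1.05, SE 0.21, adjusted p = 0.0348) in sgRNA cells with the block and neither without it. Their part in the *Ramp3* values was not tested. Within treatments, the blocked estimate was −1.11 (SE 0.56) in control cells and −0.38 (SE 0.34) in stimulated cells. The other estimates with the block were −0.16 (SE 0.32) for *Sctr*, 0.07 (SE 0.18) for *Calcrl* and −0.09 (SE 0.31) for *Adm*.

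Whether the isoproterenol response differed between plasmids was tested with the interaction term. It was 0.57 (SE 0.94) for *Sctr*, 0.65 (SE 0.98) for *Ramp3*, −0.53 (SE 0.55) for *Calcrl* and −0.20 (SE 0.81) for *Adm*, and the edgeR adjusted p was 1.00 for each. Under the block, the estimates were 0.53 (SE 0.63), 0.73 (SE 0.64), −0.57 (SE 0.36) and −0.31 (SE 0.62), again with an adjusted p of 1.00 by edgeR. Across all genes this term called 0 (0%) in edgeR with or without the block and in DESeq2, with 52 (0.395%) and 199 (1.51%) genes at an unadjusted p under 0.05 in the edgeR fits without and with the block. Single libraries moved all 4 estimates: without the stimulated sgRNA library of replicate 5 that of *Sctr* was −0.08, that of *Adm* 0.08 and that of *Calcrl* −0.30. The *Ramp3* estimate was 0.03 without the stimulated and 1.57 without the control sgRNA library of replicate 6. That of *Calcrl* was −0.90 without the stimulated sgRNA library of replicate 4.

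**Figure D4:**
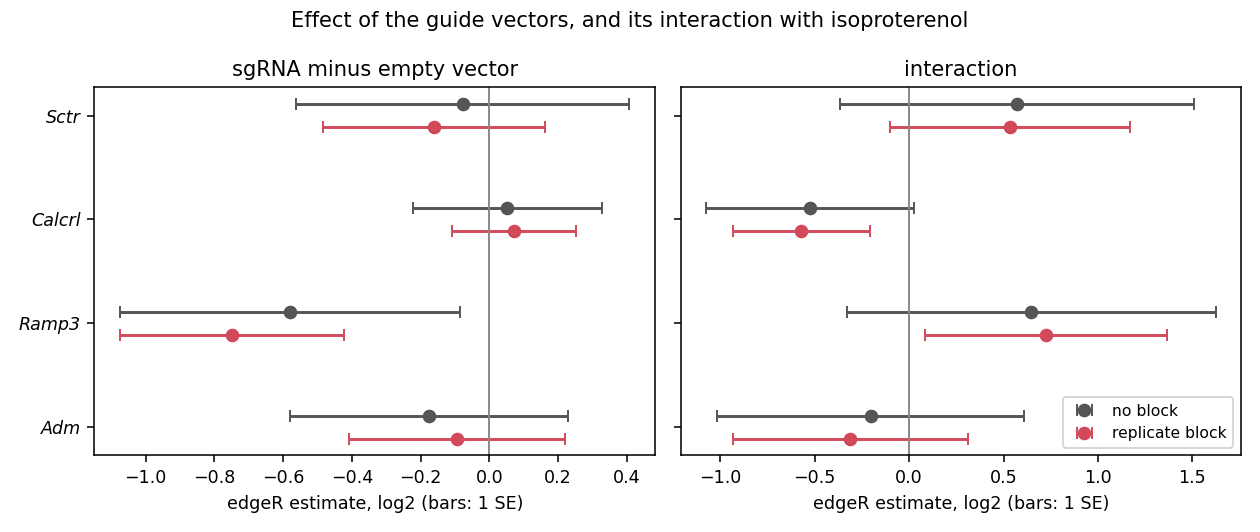
edgeR estimates (log2) of the sgRNA effect averaged over both treatments (left) and of its interaction with isoproterenol (right) for the 4 tested genes, without and with a replicate block, with bars of 1 SE. The lowest sgRNA estimate is that of *Ramp3*, −0.75 with the block, and no estimate passed the threshold.

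The replicate number was tested jointly over its 3 coefficients. *Ramp3* (edgeR adjusted p = 0.00230), *Sctr* (0.00741) and *Calcrl* (0.00864) differed among numbers and *Adm* (0.0719) did not pass, in a table in which 54.7% of all genes passed. *Ramp3* averaged 0.909, 0.527, 1.95 and 2.34 CPM and *Sctr* 1.26, 0.437, 1.78 and 1.74 CPM over the 4 libraries of replicates 3, 4, 5 and 6. *Ramp3* had 1 to 8 counts per control library and *Sctr* 2 to 14 per stimulated library. Each passed the filter through its other treatment, so these means mostly reflect that treatment. Both genes were lowest in replicate 4. *Calcrl* had its highest mean there, with 2.46, 3.17, 1.61 and 1.65 CPM, and *Adm* its lowest in replicate 5, with 1.15, 1.30, 0.419 and 1.22 CPM. Replicate 4 decided part of this result: without it the edgeR adjusted p was 0.595 for *Sctr* and 0.172 for *Calcrl*, while that of *Ramp3* was 0.0277. Without replicate 3 *Adm* passed, at 0.0257, as it did without the sgRNA control library of replicate 3 (0.0298) or that of replicate 5 (0.00384). The biological coefficient of variation, the spread between libraries beyond counting, was 59.2% for *Ramp3*, 56.8% for *Sctr*, 47.6% for *Adm* and 35.4% for *Calcrl* without the block, against a median of 18.0% over tested genes. With the block it was 27.7% for *Ramp3*, 28.0% for *Sctr*, 30.9% for *Adm* and 15.9% for *Calcrl*, against 9.96%.

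Marker lists were summed in the same libraries. The summed adipocyte markers had a median of 21070 CPM in empty vector control and 14711 in stimulated cells, and 20224 and 16551 in sgRNA cells. Of these 8 markers, 4 were called lower with isoproterenol and 0 higher, where 1.32% of all tested genes were called lower. With the block 6 were lower, against 2.61% of all tested genes, and without replicate 3 there was 1 call. The summed macrophage markers had medians of 11.1, 20.9, 8.43 and 18.6 CPM in the order empty vector control, empty vector stimulated, sgRNA control and sgRNA stimulated. Nearly all of that sum was *Cd68*, a lysosomal protein also made outside macrophages, with means of 10.6, 18.8, 8.93 and 17.8 CPM. *Ptprc* had 2, 1, 2 and 1 counts in the 4 groups, *Csf1r* 11, 8, 5 and 10, *Lyz2* 8, 6, 8 and 5, *Mrc1* 9, 23, 6 and 15, and *Adgre1* 1 in all. *Cd68* was the only one of the 6 tested, and it rose by 0.91 on the log2 scale (SE 0.17, edgeR adjusted p = 0.00518). The preadipocyte markers had medians of 24.3, 57.5, 17.7 and 34.9 CPM in the same order, and none of the 3 tested was called without the block. Most of that sum was *Ly6a*, a surface marker of stromal and many other cells, with means of 26.0, 49.3, 14.9 and 30.7 CPM, and it was the 1 gene called higher with the block, where 3.09% of all tested genes were. *Pdgfrb* had 4.45, 4.71, 3.48 and 3.67 CPM and *Pdgfra* 2.57, 2.71, 2.33 and 3.24 CPM. The smooth muscle and pericyte markers had 10.6, 7.18, 9.27 and 6.54 CPM, with 0 of 3 tested genes called without the block and 3 lower with it, where 1.32% and 2.61% of all tested genes were called lower. Of 7 tested brown adipocyte markers, 2 were called higher and 0 lower, against 1.33% of all tested genes called higher. With the block 3 were higher, against 3.09% of all tested genes, and without replicate 3 there was 1 call. The part of these shifts in the *Sctr* and *Ramp3* values was not tested. The β-adrenergic response list shares *Ucp1*, *Dio2* and *Ppargc1a* with the brown adipocyte list. In it, 6 of 9 tested genes were called higher, against 1.33% of all tested genes. With the block 7 were higher, against 3.09%. Without replicate 3 there were 4 calls, in a fit that called 120 genes in all. Among the genes called were *Nr4a1* at 2.24 (SE 0.22) and *Nr4a3* at 2.90 (SE 0.57). *Nr4a2* of the same list went from 0.713 to 1.19 CPM with the empty vector and from 0.562 to 0.720 CPM with the guides. It was higher in 6 of 8 pairs and lower in 2.

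The receptors below the filter had at most 10 counts in any library. *Gipr*, the receptor for the incretin GIP, at chr7:19156061-19166127 on the minus strand, was the only one with a count in all 16 libraries. It had 2, 2, 1 and 4 counts in empty vector control, 1, 7, 2 and 7 in empty vector stimulated, 10, 5, 3 and 3 in sgRNA control and 3, 7, 2 and 6 in sgRNA stimulated libraries. The groups overlapped, and its means were 0.199 ± 0.144, 0.340 ± 0.197, 0.383 ± 0.223 and 0.312 ± 0.122 CPM. *Pth1r*, the receptor for parathyroid hormone and its related peptide, at chr9:110722085-110747145 on the minus strand, had 13 counts in control and 18 in stimulated libraries. Its highest count was 6, in the stimulated empty vector library of replicate 6. *Vipr1* (chr9:121642716-121672954, plus strand) and *Vipr2* (chr12:116077726-116146261, plus strand) encode the receptors that vasoactive intestinal peptide and PACAP share. *Vipr1* had 10, 7, 3 and 9 counts in the 4 groups in the same order and *Vipr2* 1, 1, 1 and 2.

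The other RAMPs were near the limit of detection. *Ramp1*, which gives CALCRL its affinity for calcitonin gene-related peptide, lies at chr1:91179822-91225196 on the plus strand and had 3, 5, 7 and 4 counts in the 4 groups. *Ramp2*, at chr11:101246028-101259546 on the plus strand, had 6, 0, 1 and 4 counts in empty vector control and 2, 2, 3 and 0 in sgRNA control libraries. After isoproterenol it had 3 counts in 1 of 4 empty vector libraries, 2 counts in 1 of 4 sgRNA libraries and 0 in the other 6. The gene *Vps25* overlaps it on the same strand and had 436 to 1140 counts per library, so reads of *Ramp2* are uncertain. Per length, *Ramp3* made up 80.0% ± 10.7 of the 3 RAMPs in empty vector control cells (SD, n = 4) and 60.2% ± 23.1 in sgRNA control cells. In stimulated cells its share was 96.0% ± 4.40 and 97.2% ± 3.59. The lowest single share was 31.6%, in the sgRNA control library of replicate 5, which rests on 6 counts of the 3 genes, 1 of them of *Ramp3*. Other control shares rest on as few. The sgRNA control library of replicate 4 (70.5%) had 0, 2 and 2 counts of *Ramp1*, *Ramp2* and *Ramp3*, and that of replicate 3 (53.3%) had 2 of each. By counts, the sgRNA control group had 13 of *Ramp3* and 7 each of the others. Its share per length there thus rests in part on its shorter merged exons (1380 bases against 3022 and 3301).

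**Figure D5:**
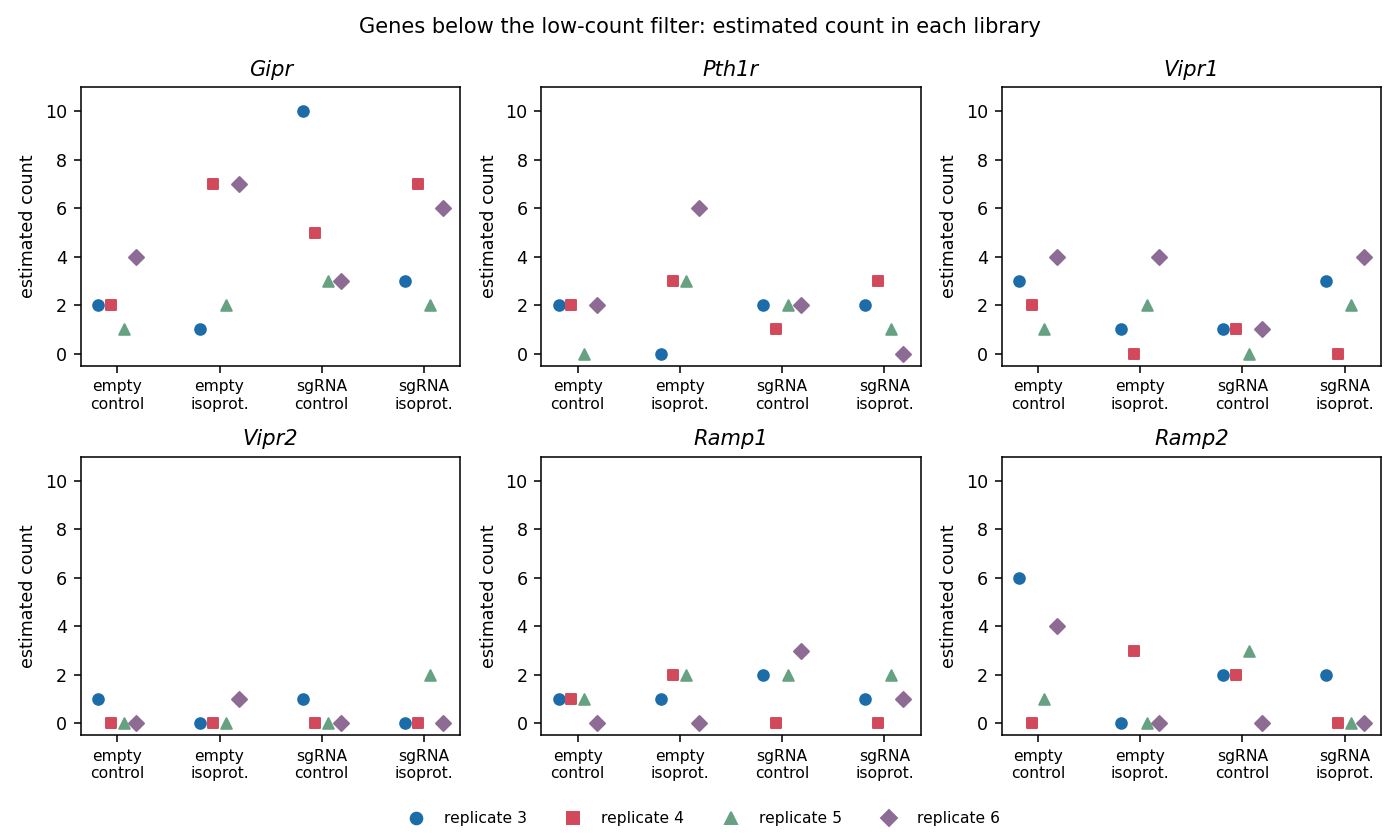
Estimated counts of the 6 genes below the low-count filter in each of the 16 libraries, by group, with points shaped by replicate number. No library exceeds 10 counts of any of them, and *Vipr2* has at most 2.

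For these 6 genes the sgRNA effect was tested gene by gene with an exact permutation test of mean CPM within treatments (4900 assignments, two-sided), added after it was seen that they fell below the filter. The test shuffled libraries across replicate numbers and did not use their pairing. *Vipr1* had the lowest p, with 0.116 CPM in sgRNA and 0.197 CPM in empty vector cells (exact permutation p = 0.215, adjusted over 6 genes 0.729). By number it was lower in sgRNA cells in 6 of 8 pairs and higher in 1. *Pth1r* had 0.118 and 0.189 CPM (exact permutation p = 0.319), *Gipr* 0.347 and 0.270 CPM (0.415) and *Ramp2* 0.0868 and 0.134 CPM (0.486). *Ramp1* had 0.105 and 0.0937 CPM and *Vipr2* 0.0288 and 0.0180 CPM, with exact permutation p = 0.800 and 0.714. None passed.

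The rest of the family and its hormones were read from lists. Of 9 other secretin-type receptors none passed the filter, 7 had any count, and *Crhr2* and *Ghrhr* had 0 in all libraries. Among 19 receptors, ligands and partners below the filter that had a count, *Adcyap1r1*, the PACAP receptor, was singled out after its values were seen. It measured 0.843, 0.591, 0.390 and 0.312 CPM in empty vector control cells and 0, 0.221, 0.127 and 0.0841 CPM in stimulated ones. In sgRNA cells it measured 1.19, 0.380, 0.748 and 0.456 CPM in control and 0.0888, 0.0566, 0.320 and 0.212 CPM in stimulated libraries. It was lower in 8 of 8 pairs, with 67 counts in control and 15 in stimulated libraries, and the highest stimulated value was just above the lowest control value. The exact permutation test within plasmids gave p = 0.000408, the smallest that 4900 assignments can give, and an adjusted p of 0.00776 over the 19 genes. That test shuffled libraries across replicate numbers and did not use their pairing. Without the 3 libraries rich in ribosomal RNA this gene no longer passed, with 0.646 CPM in control and 0.164 CPM in stimulated libraries (exact permutation p = 0.00571, adjusted over the 19 genes 0.109). The difference averaged over plasmids was −0.477 CPM there and −0.475 CPM in all 16 libraries. That smaller test had 700 assignments, and its smallest possible exact permutation p was 0.00143. edgeR without the filter gave −2.07 (SE 0.50) with an adjusted p of 0.0190 over 34821 genes. No other gene of the 19 passed; *Gcgr*, the glucagon receptor, had 21 counts in control and 7 in stimulated libraries (exact permutation p = 0.0265, adjusted 0.252).

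Of 17 other peptide ligands, 11 had a count and 2, *Adm2* and *Ghrh*, were tested. Neither was called for isoproterenol, where 2.65% of all tested genes were. Their isoproterenol differences had opposite signs, with a median of 0.49 against 0.00 over all tested genes. *Ghrh*, which encodes growth hormone-releasing hormone, had 1.20 (SE 0.52, edgeR adjusted p = 0.240), and *Adm2*, a second peptide for CALCRL with RAMPs, had −0.21 (SE 0.28, edgeR adjusted p = 0.773). *Sct*, the hormone of the secretin receptor, had a count of 0 in all 16 libraries, as had *Calcb*, *Gcg*, *Pth*, *Pth2* and *Crh*. Of 13 partners and genes of processing or clearance, 10 were tested, with a median isoproterenol difference of −0.03. None was called for isoproterenol, for the sgRNA effect or for the interaction. Among all tested genes these calls took 2.65%, 0% and 0% without the block, and 5.7%, 0.266% and 0% with it. The lowest adjusted p with the block was that of *Arrb1*, a β-arrestin that ends receptor signalling. Its difference was 0.38 (SE 0.17, edgeR adjusted p = 0.269) without the block and 0.34 (SE 0.08, 0.00699) with it, below the required 0.5, and it was higher in 8 of 8 pairs. *Arrb2*, the other β-arrestin of the list, was lower in 7 of 8 pairs, with means of 8.04 CPM in control and 6.93 CPM in stimulated libraries.

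Finally, the genes whose log2 CPM ran most like that of *Ramp3* and *Sctr* over the 16 libraries were listed among 12109 genes with a mean of at least 1 CPM, as a description. For *Ramp3* they were *Pde10a* (Pearson r = 0.94), a cyclic nucleotide phosphodiesterase, *Cdc42se1* (0.93), *Xdh* (0.92), *9330159M07Rik* (0.92) and *Nr4a1* (0.92), an orphan nuclear receptor induced by cyclic AMP. For *Sctr* they were *Anxa8* (0.94), *Osgin2* (0.90), *Arl15* (0.88), *Pts* (0.88) and *Mc2r* (0.87), the receptor for ACTH. These libraries share treatment and replicate number, which alone make values run together. *Ramp3* and *Sctr* correlated with each other at −0.45, *Ramp3* and *Calcrl* at −0.49, and *Calcrl* and *Adm* at 0.48. The other pairs were weaker, with −0.28 for *Sctr* and *Calcrl*, −0.25 for *Sctr* and *Adm* and −0.06 for *Ramp3* and *Adm*.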

How the data were processed

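Polyadenylated RNA of 16 wt1-SAM libraries was sequenced in paired ends. The authors filtered reads by quality with cutadapt, quantified them with salmon on the GENCODE transcriptome of GRCm38 and deposited estimated counts per gene as whole numbers, not normalized. Tool versions and strand settings were not given in the sources used here. All sample columns were used and groups came from the sample titles.

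Counts were tested with edgeR 4.0.16 (R 4.3.3): filterByExpr (minimum count 10, total 15), TMM scaling, a model of the 4 group means over all libraries, and two-sided glmQLFTest contrasts, adjusted after Benjamini-Hochberg over 13150 genes. A gene was called at an adjusted p under 0.05 and, apart from the joint replicate test, an absolute log2 fold change over 0.5. Deviations from group means correlated by 0.22 to 0.61 between libraries of the same number (24 pairs, median 0.41) and by −0.51 to 0.52 between libraries of different number and group (72 pairs, median −0.21). Every same-number value exceeded 0.1, so the numbers were taken as pairing the libraries, and blocked values are given where they bear on a gene. Log2 CPM used a prior count of 2. The code was tested on simulated data.

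The genes and lists were chosen with earlier results of these data known. All 10 genes are named, list genes where called or where few were tested, and the 5 genes most like *Ramp3* and *Sctr*. Coordinates and exon lengths came from GENCODE M21 and promoters from RefSeq. Alternatives were the block, DESeq2 1.42.0, RLE scaling, no filter, leaving out the ribosomal RNA gene, each library or each replicate number and, chosen after seeing the data, the 3 libraries with over 40% ribosomal RNA. Intervals from counts cover counting error only.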

Additional observations from a re-analysis of the deposited data

Results flagged for a closer look

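In each group of 4 libraries, the highest and lowest CPM of each gene was compared with the others by Dixon's criterion, which chance exceeds in about 1 in 20 groups of continuous values. That rate does not hold for counts this low: in 6 of the groups named here, 3 libraries were at 0, so any count in the other one sets it apart. Of 40 groups, 11 held a library set apart, 9 of them for genes below the low-count filter.

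*Adm* was at 0.320 CPM (4 counts) in the stimulated sgRNA library of replicate 5, below the other 3 at 1.15 to 1.27. *Ramp3* was at 0.608 CPM (8 counts) in the sgRNA control library of replicate 6, above the other 3 at 0.0748 to 0.152. *Gipr* was at 0.415 CPM (4 counts) in the empty vector control library of replicate 6 against 1 or 2 counts in the others. *Pth1r* was at 0.0760 CPM, or 1 count, in the sgRNA control library of replicate 4, where the others had 2 counts. *Vipr1* had 0 counts in the sgRNA control library of replicate 5, where the others had 1.

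*Ramp2* stood apart by being the only library of its group with a count, at 0.166 CPM in stimulated empty vector cells of replicate 4 and 0.178 CPM in stimulated sgRNA cells of replicate 3. *Vipr2* did the same in all 4 groups, at 0.0602 CPM (empty vector control, replicate 3), 0.0841 CPM (empty vector stimulated, replicate 6), 0.0700 CPM (sgRNA control, replicate 3) and 0.160 CPM (sgRNA stimulated, replicate 5). These values are worth 1 to 3 counts.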

How the results depend on the processing

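With the replicate block, which the pairing of the libraries allows, genes called for the isoproterenol effect went from 349 to 749 and for the sgRNA effect from 0 to 35. The sgRNA effect called 10 genes with DESeq2, 10 without the low-count filter and 1 without the 3 libraries rich in ribosomal RNA. Leaving out libraries or replicate numbers gave 120 to 465 calls for isoproterenol (120 without replicate 3, 170 without replicate 4), 0 to 2 for the sgRNA effect and 3787 to 7610 genes differing among replicate numbers, of 7195 (3787 without replicate 6). The interaction called 0 genes throughout. The cause of these shifts was not tested.

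No sgRNA or interaction estimate of *Sctr*, *Ramp3*, *Calcrl* or *Adm* passed the threshold under any alternative, but small ones changed sign. Over the left-out libraries and numbers the sgRNA estimate was −0.39 to 0.26 for *Sctr*, −0.13 to 0.17 for *Calcrl* and −0.345 to 0.0482 for *Adm*. The interaction was −0.43 to 1.34 for *Sctr* and −0.58 to 0.11 for *Adm*. Without the 3 libraries rich in ribosomal RNA the sgRNA estimate was 0.32 for *Sctr* and −0.00325 for *Calcrl*. The sgRNA estimate of *Ramp3* stayed below 0, from −1.18 to −0.27 in these fits. *Adm* passed the replicate test without the filter (edgeR adjusted p = 0.00677). The genes had 5 to 472 counts each over 16 libraries, which limits their precision together with the spread between libraries.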

Other observations

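*Ackr3*, a scavenger receptor that takes up adrenomedullin and the chemokine CXCL12, was looked at after its values were seen. It had 12 counts (1.01 CPM) in the stimulated empty vector library of replicate 6 and 11 counts (0.777 CPM) in the stimulated sgRNA library of the same number. The other 14 libraries held 0 or 1 count each, with 2 counts in all 8 control libraries. The difference between treatments did not pass an exact permutation test within plasmids that left out the pairing (p = 0.194, adjusted over 19 genes 0.737). edgeR without the filter gave 3.54 on the log2 scale (SE 1.10) with an adjusted p of 0.124.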
